A study of Mus musculus with 73 samples.

Results

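Syndecans and glypicans are the main families of cell surface heparan sulfate proteoglycans, and 8 of their genes, Sdc1, Sdc2, Sdc3, Sdc4, Gpc1, Gpc3, Gpc4 and Gpc6, were followed among 25220 genes measured by RNA-seq in mouse embryos. The 8 genes were chosen on measured values of the same libraries, because Sdc4 was clearly higher in p150DN than in EGFP 8-cell embryos. The study concerned the histone variant H3.3 in early development and held 73 samples, of which the 8 RNA-seq libraries were used and the other 65 were not analysed here. There were 3 libraries labelled EGFP 8-cell, 3 labelled p150DN 8-cell and 2 labelled EGFP blastocyst. All embryos were of a hybrid C57BL/6 / C3H background and were cultured in KSOM medium, and total RNA from lysates was made into libraries with a stranded SMART-seq kit. EGFP, a green fluorescent protein, was the control, and p150DN is a dominant negative form of p150, the large subunit of the histone chaperone CAF-1. Injection of mRNA into 1-cell embryos is stated in the labels for 2-cell ChIP-seq samples and is not stated for these RNA-seq samples. The sources used here do not give the number of embryos per library or their ages in hours. No label says that replicates came from separate litters or cultures, so the tests measure the spread between libraries, which may be technical.

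A heparan sulfate proteoglycan is a core protein that carries long sulfated sugar chains, which bind growth factors, morphogens and matrix proteins at the cell surface. Syndecans cross the membrane and have a short cytoplasmic tail that meets the cytoskeleton, whereas glypicans are held in the outer leaflet by a glycosylphosphatidylinositol anchor. In the early embryo, heparan sulfate is known for its part in fibroblast growth factor signalling, and in simple epithelia syndecan-1 sits on the basolateral surface.

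Each library held between 16578221 and 22488477 counted fragments. Genes above 0 numbered 17310 to 18402 in EGFP 8-cell, 18412 to 21282 in p150DN and 18547 to 18991 in blastocyst libraries. Chaf1a, the gene of p150, measured 165, 254 and 238 FPKM in p150DN replicates 1, 2 and 3, above the 27.7, 30.2 and 28.8 FPKM of the EGFP 8-cell replicates. FPKM counts fragments relative to gene length and to the size of the library. The summed level of 18 trophectoderm markers was 347 to 477 FPKM in EGFP 8-cell, 534 to 847 in p150DN and 1555 to 1600 in blastocyst libraries. For 13 of these 18 markers all p150DN libraries were above all EGFP 8-cell libraries, and for 2 all were below. Of all 11730 genes tested, 49.8% did not overlap in either direction. Elf5 was at 0 in every EGFP 8-cell library. Of the 12 markers tested for p150DN 9 rose and 1 fell by limma, where 24.6% of all genes tested rose and 9.68% fell. Inner cell mass markers summed to 489 to 639, 557 to 786 and 885 to 941 FPKM in the same groups. Of 9 inner cell mass markers tested for p150DN, 3 rose and 2 fell by limma. Oocyte markers summed to 97.5 to 122, 48.6 to 98.1 and at most 14.2 FPKM, and of 9 tested for p150DN 0 rose and 3 fell. Of 10 cumulus cell markers the one with a mean above 1 FPKM in any group was Amhr2, whose list summed to 18.2 to 23.8 FPKM in EGFP 8-cell, 5.34 to 13.1 in p150DN and 1.72 to 1.98 in blastocyst libraries. The 6 sperm markers each had a mean below 1 FPKM in every group.

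Sdc4 encodes syndecan-4, the syndecan of focal adhesions, which binds protein kinase C alpha and alpha-actinin through its cytoplasmic tail. The gene lies on chromosome 2 at 164424247 to 164443188 (GRCm38.p6). It measured 3.22, 3.76 and 3.91 FPKM in EGFP 8-cell replicates 1, 2 and 3, and 118, 103 and 109.6 FPKM in the p150DN replicates. Each p150DN library lay far above each EGFP 8-cell library, and the p150DN libraries lay close together. The means were 3.63 ± 0.362 FPKM (SD, n = 3) and 110.2 ± 7.81 FPKM (SD, n = 3), a ratio of 30.4. These values chose the genes, so they are given without a test, and the part of the trophectoderm markers in them was not tested. The EGFP 8-cell values rested on 165 to 187 fragments per library and the p150DN values on 4468 to 5933. In the order of levels over 25220 genes, Sdc4 was between 7544th and 7918th in EGFP 8-cell libraries and between 633rd and 686th in p150DN libraries.

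Blastocysts held more Sdc4 than either 8-cell group. The 2 EGFP blastocyst libraries measured 249 and 147 FPKM, a mean of 198 ± 72.3 (SD, n = 2). All 3 p150DN libraries were below both, at 55.6% of the blastocyst mean. In bulk samples such as these, fewer cells expressing a gene and less RNA per cell cannot be told apart.

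The stretches of DNA just before the start of Sdc4 and of 2 other members with a different course, Sdc1 and Gpc4, are shown to set their letters beside the levels. Each is the 250 bases upstream of the RefSeq gene start in GRCm38.p6, written 5′ to 3′ on the gene's strand. The windows are chr2:164443189-164443438 on the minus strand for Sdc4, chr12:8771146-8771395 on the plus strand for Sdc1 and chrX:52164924-52165173 on the minus strand for Gpc4. Capitals mark the letters GGGCGG of a GC box on either strand (written CCGCCC where it lies on the other strand) and the letters TATAA of a TATA-like element on either strand.
Sdc4: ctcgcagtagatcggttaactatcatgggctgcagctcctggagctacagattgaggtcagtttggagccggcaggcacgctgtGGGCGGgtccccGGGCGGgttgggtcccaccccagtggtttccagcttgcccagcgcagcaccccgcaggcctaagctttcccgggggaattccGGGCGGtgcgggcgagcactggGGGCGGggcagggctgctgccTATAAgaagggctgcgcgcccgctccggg
Sdc1: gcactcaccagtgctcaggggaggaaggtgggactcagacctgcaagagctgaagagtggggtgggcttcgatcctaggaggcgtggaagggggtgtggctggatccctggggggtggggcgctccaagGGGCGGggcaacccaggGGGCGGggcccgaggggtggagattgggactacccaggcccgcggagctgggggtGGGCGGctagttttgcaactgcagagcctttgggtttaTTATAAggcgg
Gpc4: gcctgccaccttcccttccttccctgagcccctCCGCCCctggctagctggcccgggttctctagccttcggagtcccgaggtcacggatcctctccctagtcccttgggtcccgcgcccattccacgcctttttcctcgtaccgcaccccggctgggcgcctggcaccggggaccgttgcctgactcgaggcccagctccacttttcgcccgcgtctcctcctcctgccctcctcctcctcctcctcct
The Sdc4 window held 4 GC boxes and 1 TATA-like match, which lay 29 to 25 bases before the start. The Sdc1 window held 3 GC boxes and TATAA on both strands, overlapping, between 11 and 6 bases before the start. The Gpc4 window held 1 GC box, between 217 and 212 bases before the start, and no TATAA. Of 32851 RefSeq promoter windows of the same length, 32.7% held a GC box, 4.09% held 4 or more and 22.8% held TATAA, while 3.23% held both kinds of letters.

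Other letters searched on both strands were the E box CACGTG (6.02% of all windows), the AP-1 letters TGANTCA (6.75%), the CCAAT box (33.9%), the ETS core CCGGAA (12.0%), the TEAD letters GGAATG (12.6%) and the GATA letters AGATAA (9.99%). Sdc4 held 1 ETS core, which overlapped a GC box by 2 bases. Sdc1 held 1 CCAAT box and Gpc4 held 1 match to the TEAD letters. Sequences of Sdc3 and Gpc3 were also found, with 3 GC boxes each and no TATAA, so that windows were read for 5 of the 8 members. A match describes letters in the window and is not evidence of binding.

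**Figure D1:**
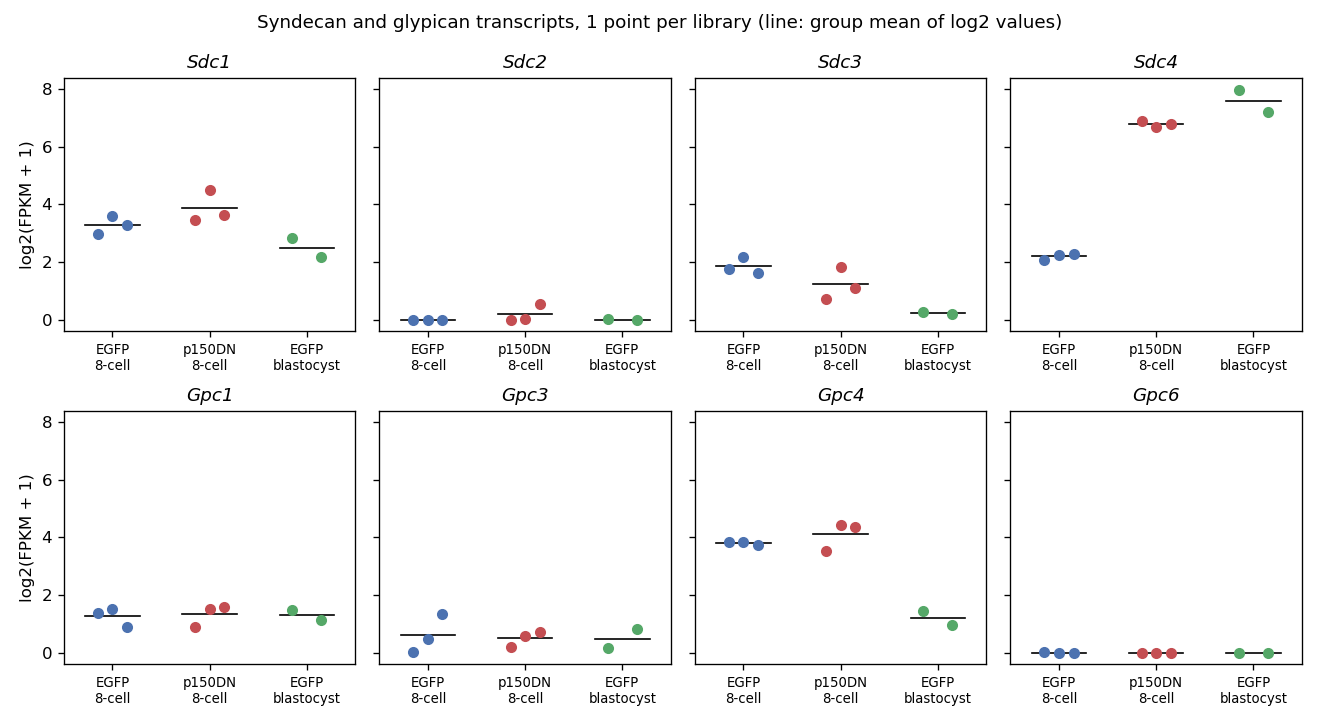
Levels of the 8 genes as log2(FPKM + 1), with 1 point per library for 3 EGFP 8-cell, 3 p150DN 8-cell and 2 EGFP blastocyst libraries and a line at each group's mean. Sdc4 stands apart in p150DN and blastocyst libraries, Gpc4 is low in blastocysts, and Sdc2 and Gpc6 lie near 0.

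Among the other syndecans, Sdc1 was the most abundant. Sdc1 encodes syndecan-1, the syndecan typical of epithelia, on chromosome 12 at 8771396 to 8793716. It measured 6.87, 11.2 and 8.71 FPKM in EGFP 8-cell replicates, 9.97, 21.8 and 11.5 in p150DN replicates, and 6.20 and 3.49 in blastocysts. The p150DN and EGFP 8-cell ranges overlapped, with 2 of 3 p150DN libraries above every EGFP library. The means were 8.91 ± 2.15 (SD, n = 3) in EGFP 8-cell, 14.4 ± 6.45 (SD, n = 3) in p150DN and 4.85 ± 1.92 FPKM (SD, n = 2) in blastocysts. Replicate 2 was the highest p150DN library.

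Sdc3, which encodes syndecan-3, a syndecan best known in the nervous system, lies on chromosome 4 at 130792537 to 130826318. It measured 2.36, 3.56 and 2.09 FPKM in EGFP 8-cell replicates, 0.671, 2.53 and 1.18 in p150DN replicates, and 0.208 and 0.161 in blastocysts. Replicates 1 and 3 of p150DN were below every EGFP 8-cell library and replicate 2 was inside their range. The means were 2.67 ± 0.783 (SD, n = 3), 1.46 ± 0.961 (SD, n = 3) and 0.184 ± 0.0331 FPKM (SD, n = 2).

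Sdc2, the gene of syndecan-2, on chromosome 15 at 32920723 to 33034721, was listed at 0 in all 3 EGFP 8-cell libraries. It measured 0, 0.0154 and 0.455 FPKM in p150DN replicates 1, 2 and 3, and 0.0156 and 0 in blastocysts. The 0.455 FPKM of p150DN replicate 3 corresponds to 25 fragments, and every other library held at most 1. A count of 0 allows 3 fragments, or up to 0.0403 to 0.0468 FPKM by library, for counting error only and at a gene length of 3312 bases recovered from the values, which was not unique. The level above 0 thus rested on 1 library, which also had the most genes above 0.

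Among the glypicans, Gpc4 was the most abundant member at the 8-cell stage. Gpc4 encodes glypican-4, which modulates Wnt and fibroblast growth factor signalling, and lies on the X chromosome at 52051007 to 52164923. It measured 13.4, 13.2 and 12.4 FPKM in EGFP 8-cell replicates, 10.6, 20.8 and 19.4 in p150DN replicates, and 1.75 and 0.937 in blastocysts. Replicates 2 and 3 of p150DN were above and replicate 1 was below the narrow EGFP 8-cell range. The means were 13.0 ± 0.551 (SD, n = 3), 16.9 ± 5.54 (SD, n = 3) and 1.35 ± 0.578 FPKM (SD, n = 2). The p150DN difference on the log2 scale was 0.31, 0.02 with median-of-ratios scaling and -0.27 with p150DN replicates 2 and 3 both left out. Those 2 libraries held 20465 and 21282 genes above 0, against 18412 in p150DN replicate 1, and the part of this in the Gpc4 level was not tested.

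Gpc1, the gene of glypican-1, on chromosome 1 at 92831645 to 92860211, was low in every library. It measured 1.62, 1.89 and 0.860 FPKM in EGFP 8-cell replicates, 0.871, 1.84 and 2.04 in p150DN replicates, and 1.78 and 1.20 in blastocysts. The ranges of the 3 groups overlapped, with means of 1.46 ± 0.535 (SD, n = 3), 1.58 ± 0.626 (SD, n = 3) and 1.49 ± 0.410 FPKM (SD, n = 2).

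Gpc3, the gene of glypican-3, a known inhibitor of Hedgehog signalling, is the X-chromosome neighbour of Gpc4, at 52272426 to 52613974, with 107502 bases between them. It measured 0.0212, 0.392 and 1.57 FPKM in EGFP 8-cell replicates, 0.151, 0.518 and 0.665 in p150DN replicates, and 0.114 and 0.784 in blastocysts. Values within each group spread widely, and these levels rested on 1 to 69 fragments per library. Although Gpc3 and Gpc4 are neighbours, only Gpc4 was above 1 FPKM in all 8-cell libraries.

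Gpc6, the gene of glypican-6, on chromosome 14 at 116924920 to 117979529, was listed at 0 in 5 of 8 libraries. Its highest value was 0.0212 FPKM, in EGFP 8-cell replicate 1. Of the glypican genes outside the 8, Gpc5 measured 1.19 ± 0.0686 FPKM in EGFP 8-cell (SD, n = 3), 0.866 ± 0.371 in p150DN (SD, n = 3) and 0.0796 ± 0.0619 in blastocyst libraries (SD, n = 2). Gpc2 measured 0.191 ± 0.0363, 0.852 ± 0.457 and 0.504 ± 0.188 FPKM in the same groups, and it overlaps Stag3, so its reads are uncertain without strand.

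Of the 8 members, 1, Sdc4, had p150DN libraries that did not overlap the EGFP 8-cell libraries, where 49.8% of 11730 genes tested did not overlap. The rule used this contrast, so nothing is read from that share.

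The make-up of the family is given as a description only, since its sums and shares hold the Sdc4 values that chose the genes. Summed over the 8 genes, the level was 30.3 ± 3.3 FPKM in EGFP 8-cell (SD, n = 3), 145 ± 4.86 in p150DN (SD, n = 3) and 207 ± 74.8 in blastocyst libraries (SD, n = 2). Sdc4 made up 12.0% of that sum in EGFP 8-cell libraries, 76.1% in p150DN (68.4% to 84.2%) and 95.9% in blastocysts. Gpc4 made up 43.2%, 11.6% and 0.643%, and Sdc1 29.1%, 9.85% and 2.33%. Both shares were lower in p150DN because Sdc4 enlarged the sum. The mean levels were not lower, at 16.9 against 13.0 FPKM in EGFP 8-cell for Gpc4 and 14.4 against 8.91 for Sdc1. Without Sdc4, the other 7 genes summed to 26.7 ± 3.11, 35.0 ± 12.6 and 8.32 ± 2.47 FPKM. In EGFP 8-cell libraries the 4 glypicans summed to 15.1 ± 0.346 FPKM and the 4 syndecans to 15.2 ± 3.05 FPKM. The glypican sum was 19.0 ± 6.39 FPKM in p150DN and 3.28 ± 0.514 in blastocyst libraries.

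**Figure D2:**
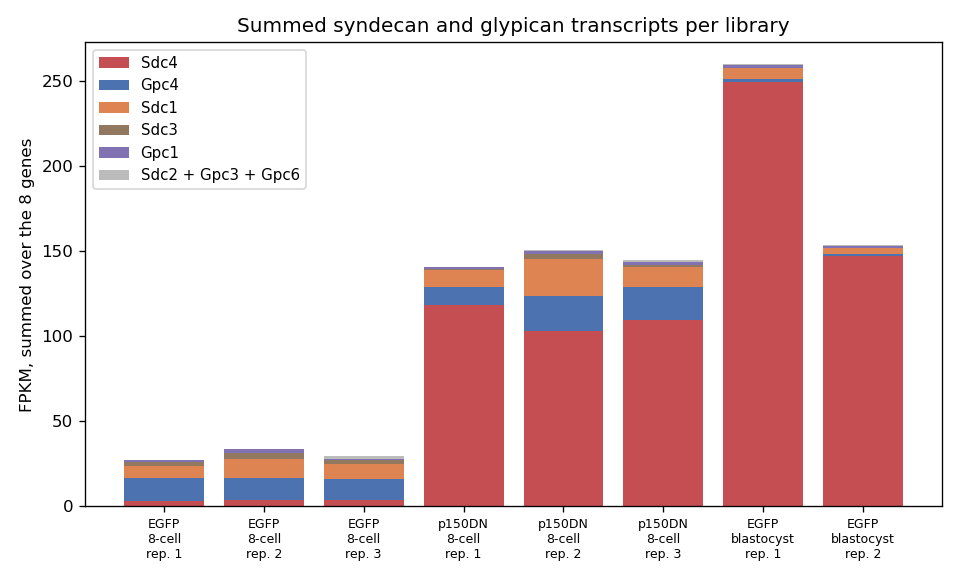
FPKM summed over the 8 genes in each of the 8 libraries, as stacked bars by gene (Sdc2, Gpc3 and Gpc6 together). The 3 EGFP 8-cell bars are mostly Gpc4 and Sdc1, while Sdc4 makes up 68.4% or more of each p150DN bar and nearly all of each blastocyst bar.

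The comparison of stages asked how the members differed between EGFP blastocysts and EGFP 8-cell embryos. The EGFP 8-cell libraries also served in the contrast that chose the genes, so Sdc4, on whose values the choice rested, is described here without a test. Genes were tested with limma on log2(FPKM + 1), a scale that understates the change of low genes, and p-values were adjusted by Benjamini-Hochberg over all 12199 genes tested. In that comparison 67.5% of genes passed at an adjusted p below 0.05, 42.6% higher and 24.9% lower in blastocysts. Of the 8 members 5 passed the filter on low values, and Sdc2, Gpc3 and Gpc6 did not. Of the 4 members tested, Sdc1, Sdc3 and Gpc4 fell and Gpc1 did not pass. The values of the 2 groups did not overlap for these 3 genes or for Sdc4, against 79.6% of all genes tested.

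Sdc4 was higher in blastocysts by 5.38 on the log2 scale, with both blastocyst libraries above all EGFP 8-cell libraries, a ratio of means of 54.6. Gpc4 fell by 2.60 ± 0.19 (SE, limma adjusted p = 6.1e-05), with both blastocyst libraries lower, a ratio of 9.65 between the 8-cell and blastocyst means. Sdc3 fell by 1.61 ± 0.21 (SE, limma adjusted p = 0.000535), with both blastocyst libraries lower. At below 1 FPKM in both blastocyst libraries, Sdc3 passed the filter through the EGFP 8-cell libraries alone, which favours a fall. For Gpc4 and Sdc3 the call held under every alternative run for them. Sdc1 fell by 0.78 ± 0.27 (SE, limma adjusted p = 0.0351), with both blastocyst libraries lower, and this call was lost in 6 of 14 alternatives, up to an adjusted p of 0.291 by limma at a log2 difference of -0.44 when blastocyst replicate 2 was left out. Gpc1 differed by 0.03 ± 0.24 (SE, limma adjusted p = 0.916), and its sign changed in 5 of 13 alternatives.

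Set against EGFP blastocysts, p150DN 8-cell embryos differ in both treatment and stage, and this contrast shares its p150DN libraries with the one that chose the genes. Of 12648 genes tested with limma, 26.1% passed, 11.9% higher and 14.2% lower in p150DN. Between these groups 61% of genes did not overlap. Of the 4 members tested here, all but Sdc4 among those that passed the filter, Gpc4 and Sdc1 were higher in p150DN and Sdc3 and Gpc1 did not pass. Gpc4 was higher by 2.90 ± 0.32 on the log2 scale (SE, limma adjusted p = 0.00323), with 3 of 3 p150DN libraries above both blastocysts, a ratio of means of 12.6. Sdc1 was higher by 1.36 ± 0.35 (SE, limma adjusted p = 0.0313), with 3 of 3 libraries above both. Sdc3 differed by 0.98 ± 0.35 (SE, limma adjusted p = 0.0766), with 3 of 3 libraries above both, and passed in 2 alternatives. Here Sdc3 passed the filter through the p150DN libraries alone, which favours a difference in that direction. Gpc1 differed by 0.03 ± 0.29 (SE, limma adjusted p = 0.939).

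Gpc4 lost its call in 2 of 15 alternatives, those with blastocyst replicate 1 or 2 left out. Sdc1 lost its call in 5 of 15, among them these 2. With blastocyst replicate 1 or 2 left out, the spread comes from the p150DN libraries alone and the lone blastocyst is assumed to vary like them. The log2 difference of Gpc4 was then 3.16 or 2.65 (limma adjusted p = 0.0533 or 0.0969) and that of Sdc1 1.70 or 1.02 (limma adjusted p = 0.117 or 0.268). Sdc4, given without a test, was lower in p150DN than in blastocysts, with a log2 difference of -0.79, and of -0.42 or -1.17 without blastocyst replicate 1 or 2. In the same p150DN libraries Gpc4 lay between 10.6 and 20.8 FPKM, against 0.937 and 1.75 FPKM in the blastocysts.

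**Figure D3:**
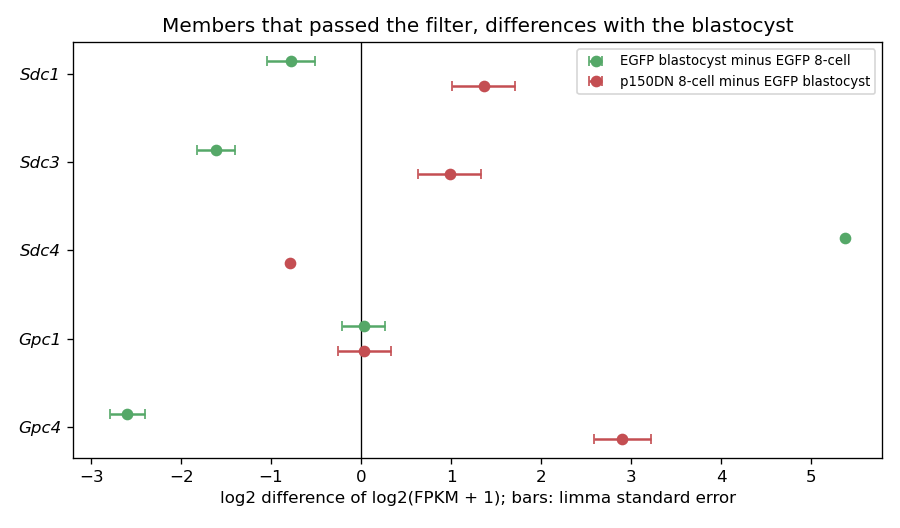
Log2 differences in log2(FPKM + 1) for the 5 members that passed the filter, EGFP blastocyst minus EGFP 8-cell in green and p150DN 8-cell minus EGFP blastocyst in red, with limma standard errors as bars and none for Sdc4, which was not tested. Gpc4 sits at -2.60 and 2.90, and Sdc4 at 5.38 and -0.79.

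The other genes that build, modify, release or answer to these proteoglycans were taken as 10 lists with 110 genes, of which 64 passed the filter in the p150DN comparison. By limma, 34.3% of the 11730 genes tested changed, 24.6% higher and 9.68% lower in p150DN. Of the 64 list genes 26 rose, 5 fell and 33 did not pass, which is 40.6% and 7.81%, and their median log2 difference was 0.37 against 0.19 for all genes tested. Of those that rose, Wnt7b, Wnt3a, Mdk, Igf2, Sdcbp2, Src, Chpf, Hspg2 and Hgsnat were below 1 FPKM in every EGFP 8-cell library. They passed the filter through the p150DN libraries alone, which favours a rise. The lists were chosen with earlier results of these data known, so these counts are a description only. Beside these counts stand the trophectoderm markers, of which 9 of 12 tested rose, and their part in the result was not tested. Among the markers tested, Eomes, Krt7 and Ptges also passed the filter through the p150DN libraries alone. Of 7 primitive endoderm markers tested, 4 rose and 1 fell, with a sum over 10 of 141 to 199.7 FPKM in EGFP 8-cell and 187 to 235 in p150DN libraries, and their part was not tested either. With median-of-ratios scaling 32.3% of the list genes rose and 9.23% fell, against 14.4% and 20.2% of all genes tested. With quantile normalization the shares were 23.4% and 15.6%, against 14.9% and 15.6%. With p150DN replicates 2 and 3 both left out, which leaves 1 p150DN library and the spread of EGFP libraries alone, they were 14.1% and 6.25%, against 9.89% and 5.42%. Of the 31 list genes called, 9 kept the call in all alternatives run and 0 changed sign.

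The median log2 difference was 0.22 for linker synthesis, 0.31 for chain polymerization, 0.33 for chain modification, 0.63 for sugar and sulfate supply and 0.36 for chain degradation. It was 0.23 for core protein processing, 0.77 for cytoplasmic partners, 0.38 for other heparan sulfate carriers, 0.99 for heparin-binding ligands and 0.03 for chondroitin sulfate genes.

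In the synthesis of the chain, Fam20b, the kinase that phosphorylates the linker xylose, was the 1 of 5 tested linker genes that rose. It measured 4.99, 4.37 and 4.79 FPKM in EGFP 8-cell and 8.44, 11.6 and 13.1 in p150DN replicates, without overlap. The log2 difference was 1.05 ± 0.19 (SE, limma adjusted p = 0.00407), and the call was lost with p150DN replicates 2 and 3 both left out. Of 3 chain polymerization genes tested, 1 rose. Ext1, the most abundant polymerase gene, measured 6.49 ± 2.34 FPKM in EGFP 8-cell and 4.99 ± 1.33 in p150DN (SD, n = 3 each) and did not pass. Ext2, its partner subunit, was the gene that rose, from 0.879 to 2.18 FPKM. It was named after its values were seen, and its call was lost in 9 of 15 alternatives.

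Of 6 chain modification genes tested, 1 rose. Sulf2, an extracellular enzyme that removes 6-O-sulfate from finished chains, measured 2.82, 2.21 and 3.35 FPKM in EGFP 8-cell and 9.96, 7.93 and 7.77 in p150DN replicates, without overlap. Its log2 difference was 1.34 ± 0.19 (SE, limma adjusted p = 0.00161), and the call held in all 16 alternatives. In blastocysts Sulf2 measured 19.6 and 14.6 FPKM. Hs6st1, the sulfotransferase that adds 6-O-sulfate, was the most abundant gene of the list, at 18.6 ± 1.93 FPKM in EGFP 8-cell and 20.8 ± 5.23 in p150DN (SD, n = 3 each), and did not pass. The enzyme that removes 6-O-sulfate and the one that adds it thus gave different calls, and the difference between the 2 genes was not tested.

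Of the genes that supply sugar nucleotides and sulfate, 5 of 10 tested rose and 0 fell, and 3 rose with quantile normalization. Slc26a2, a sulfate transporter of the plasma membrane, rose from 2.17 ± 0.450 to 8.04 ± 3.26 FPKM (SD, n = 3 each), by 1.45 ± 0.29 on the log2 scale (SE, limma adjusted p = 0.00563). Ugp2, which makes UDP-glucose, rose from 5.46 ± 0.532 to 13.5 ± 1.38 FPKM, by 1.17 ± 0.16 (SE, limma adjusted p = 0.00127). Ugp2 overlaps Vps54 in RefSeq, so its reads are uncertain without strand. Slc35d1, a transporter of UDP-glucuronic acid, rose from 2.00 ± 0.489 to 5.13 ± 0.554 FPKM, by 1.04 ± 0.20 (SE, limma adjusted p = 0.0051). The calls of Slc26a2 and Slc35d1 were lost with p150DN replicates 2 and 3 both left out. The other members that rose, named after their values were seen, were Ugdh, which makes UDP-glucuronic acid, from 4.39 to 9.23 FPKM (call lost in 2 of 16 alternatives), and Impad1, a phosphatase of the sulfate donor's by-product, from 7.78 to 15.0 FPKM (lost in 5 of 16).

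Of 6 lysosomal degradation genes tested, 3 rose and 1 fell. Idua, the iduronidase, measured 7.21 ± 2.03 FPKM in EGFP 8-cell and 4.19 ± 0.156 in p150DN, and fell by 0.63 ± 0.21 (SE, limma adjusted p = 0.0471). This call was lost in 9 of 16 alternatives, and Idua overlaps Slc26a1 and Dgkq. By limma 0 of 7 passed without EGFP 8-cell replicate 3 and 0 of 6 without p150DN replicate 3, with 2 and 3 at an unadjusted p under 0.05, and 0 of 10 passed without the filter, with 4. Quantile normalization gave 0 higher and 2 lower.

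Core proteins are cut and released by proteases, and the list for this step also held Notum. Of 6 genes tested in it, 2 rose and 1 fell. Adam17, a sheddase of syndecans, was the most abundant, at 60.1, 67.5 and 51.0 FPKM in EGFP 8-cell and 28.3, 46.1 and 32.1 in p150DN replicates. The groups did not overlap, and it fell by 0.75 ± 0.19 on the log2 scale (SE, limma adjusted p = 0.0168), a call lost in 3 of 16 alternatives. Blastocysts held 18.2 and 12.1 FPKM of Adam17, below every p150DN library. Pcsk6, a proprotein convertase, rose from 5.40 ± 1.46 to 9.47 ± 1.76 FPKM, by 0.72 ± 0.22 (SE, limma adjusted p = 0.0323), and lost the call in 8 of 16 alternatives.

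Notum, named after its values were seen, measured 1.45, 0.857 and 1.26 FPKM in EGFP 8-cell, 3.01, 3.42 and 2.48 in p150DN, and 0.0256 and 0 in blastocyst libraries. It was highest in p150DN, in all 3 libraries, and near 0 in blastocysts. Its log2 difference was 0.86 ± 0.20 between p150DN and EGFP 8-cell (SE, limma adjusted p = 0.0119). That call was lost in 2 of 15 alternatives, among them quantile normalization. Between p150DN and blastocyst the difference was 1.96 ± 0.24 (SE, limma adjusted p = 0.0043). This second call was lost with blastocyst replicate 1 or 2 left out, where the p150DN libraries alone give the spread. For it Notum passed the filter through the p150DN libraries alone.

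Of 11 cytoplasmic partners of syndecans tested, 5 rose and 2 fell. Actn1 and Actn4 encode the alpha-actinins, which link syndecan-4 to actin. Actn4 was the most abundant, at 148, 95.4 and 153 FPKM in EGFP 8-cell, 231, 189.6 and 246 in p150DN, and 324 and 336 in blastocyst libraries. The p150DN libraries lay between the other groups without overlap, and the p150DN difference was 0.77 ± 0.19 on the log2 scale (SE, limma adjusted p = 0.0156), lost in 3 of 16 alternatives. Actn4 overlaps Capn12 (at most 13.8 FPKM) in RefSeq, so part of its reads is uncertain without strand. Actn1 rose from 23.6 ± 5.79 to 49.3 ± 4.79 FPKM, by 1.05 ± 0.18 (SE, limma adjusted p = 0.00312). This call was lost with p150DN replicates 2 and 3 both left out. Pdcd6ip, which encodes ALIX, a partner of syntenin in exosome formation, rose from 10.8 ± 1.77 to 23.8 ± 1.75 FPKM, by 1.08 ± 0.16 (SE, limma adjusted p = 0.00174).

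The delta form of protein kinase C, Prkcd, fell from 34.9 ± 5.78 to 19.3 ± 6.79 FPKM, by 0.86 ± 0.24 (SE, limma adjusted p = 0.0219), with the call lost in 5 of 16 alternatives. Its relative Prkca, the kinase bound by syndecan-4, had a mean below 1 FPKM in each group and was not tested. Tiam1, an activator of Rac, also fell, from 33.1 to 21.3 FPKM, and Sdcbp2 and Src were the other genes that rose, from 0.0963 to 1.72 and from 0.525 to 2.52 FPKM. These 3 were named after their values were seen. Sdcbp2 and Src passed the filter through the p150DN libraries alone.

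Of 4 other heparan sulfate carriers tested, 2 rose. Agrn, which encodes the basement membrane protein agrin, rose from 0.923 ± 0.365 to 2.99 ± 0.646 FPKM, by 1.06 ± 0.23 (SE, limma adjusted p = 0.00785). This call was lost with p150DN replicates 2 and 3 both left out. Hspg2, the gene of perlecan, was the other, at 0.570 and 1.81 FPKM, named after its values were seen, and its call was lost in 4 of 15 alternatives, among them leaving out EGFP 8-cell replicate 1 or 3. Of 5 chondroitin sulfate genes tested, 1 rose, Chpf, from 0.162 to 1.65 FPKM, likewise named afterwards. With quantile normalization Chpf did not pass and the list had 0 higher and 2 lower. Hspg2 and Chpf passed the filter on low values through the p150DN libraries alone. Chst12, the most abundant chondroitin gene, measured 3.64 ± 0.606 FPKM in EGFP 8-cell and 4.95 ± 0.752 in p150DN (SD, n = 3 each) and did not pass.

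Of 8 heparin-binding ligands tested, 5 rose and 1 fell. Pdgfa, which encodes a chain of platelet-derived growth factor, was the most abundant, at 14.5, 19.2 and 17.9 FPKM in EGFP 8-cell and 45.2, 27.8 and 42.9 in p150DN replicates. It rose by 1.10 ± 0.20 on the log2 scale (SE, limma adjusted p = 0.00426), without overlap and in all 16 alternatives. Tgfb1, the gene of transforming growth factor beta, was the ligand that fell, from 13.9, 14.7 and 12.2 to 2.05, 3.38 and 4.02 FPKM. It fell by 1.84 ± 0.22 (SE, limma adjusted p = 0.000661), also in all 16 alternatives, and measured 0.522 and 0.470 FPKM in blastocysts. Wnt7b, Wnt3a and Mdk, named after their values were seen, rose from 0.242 to 4.96, from 0.108 to 1.97 and from 0.389 to 2.80 FPKM. Wnt7b, Wnt3a, Mdk and Igf2, which also rose, were below 1 FPKM in every EGFP 8-cell library. They passed the filter through p150DN alone, so the count of ligands that rose is a description only.

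**Figure D4:**
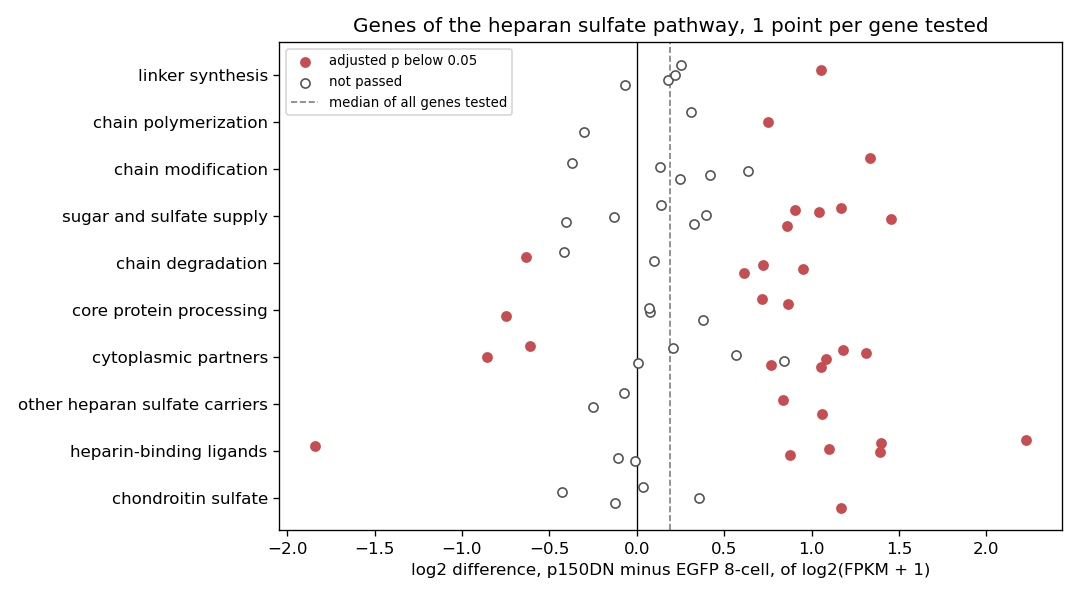
Log2 difference in log2(FPKM + 1), p150DN minus EGFP 8-cell, for the 64 genes tested in the 10 lists, 1 point per gene, filled where the limma adjusted p was below 0.05. The filled points are 26 to the right and 5 to the left of 0, and the dashed line at 0.19 is the median of all genes tested. The lists were chosen with earlier results of these data known.

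Between the stages, 34 of 63 list genes tested were higher and 12 lower in blastocysts than in EGFP 8-cell embryos by limma, 54.0% and 19.0%, against 42.6% and 24.9% of all genes. Between p150DN and blastocysts, 8 of 68 were higher and 14 lower in p150DN, 11.8% and 20.6%, against 11.9% and 14.2% of all genes. These comparisons share libraries with the one above, so the values of a gene in each are set side by side only. Here too the filter can admit a gene through its higher group alone. With 1 blastocyst library, the p150DN libraries alone give the spread. With blastocyst replicate 1 left out 0 of 74 passed by limma, with 18 at an unadjusted p under 0.05, and with replicate 2 left out 0 of 75, with 20.

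Genes with a course like that of Sdc4 were ranked by the root-mean-square difference between centred log2(FPKM + 1) profiles over the 8 libraries, among 8081 genes. The closest were Ass1, which makes argininosuccinate, at 0.337, Scd2, a stearoyl-CoA desaturase, at 0.41, Anxa2, a calcium-dependent membrane-binding annexin, at 0.422, Lrp2, the endocytic receptor megalin, at 0.457, and Krt18, a keratin of simple epithelia, at 0.479. Ass1 averaged 2.60 FPKM in EGFP 8-cell, 61.4 in p150DN and 154 in blastocyst libraries. Krt18 averaged 5.98, 168 and 427 FPKM in the same groups. As the profiles hold only 3 groups, this likeness says that the group levels stood in the same order and at similar distances. Lrp2 and Krt18 are among the 18 trophectoderm markers above.

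**Figure D5:**
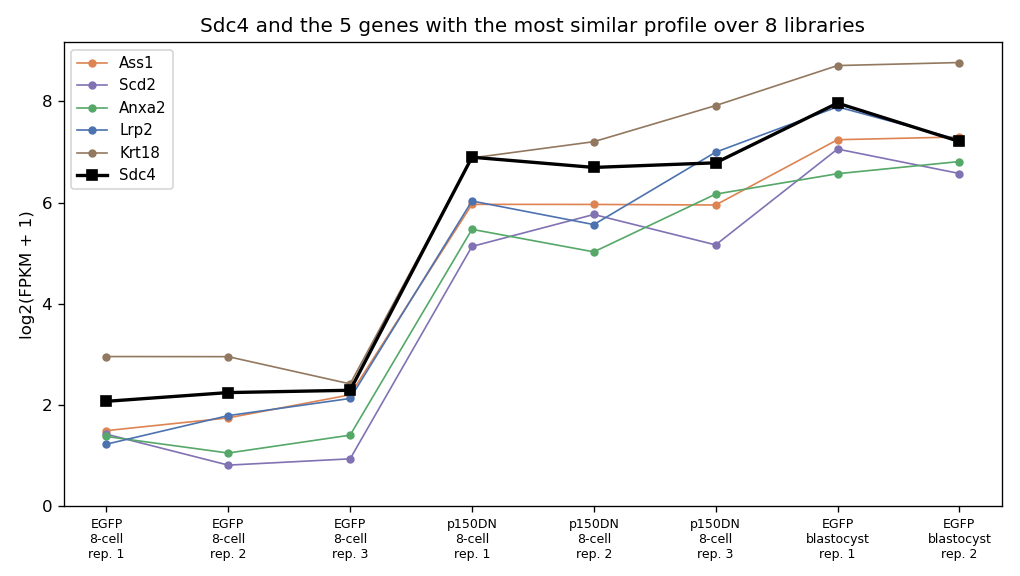
Log2(FPKM + 1) in each of the 8 libraries for Sdc4 (black squares) and the 5 genes with the smallest root-mean-square difference from its centred profile. All 6 lines are low in the 3 EGFP 8-cell libraries and high in the p150DN and blastocyst libraries.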

How the data were processed

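RNA-seq values of 8 embryo libraries were analysed. The authors deposited FPKM values, per the file headers, for 25220 gene symbols with 1 column per library. The submitters' processing notes name Trim Galore, HISAT2, Bowtie2, SAMtools and featureCounts, without versions, and the build mm10. The sources used here do not give the annotation or strand setting. Columns named for 8-cell embryos without p150DN were taken as EGFP 8-cell, the one remaining 8-cell RNA-seq group.

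The most frequent product of FPKM and length among small RNA genes under 200 bases was assumed to be 1 fragment. This gave 16578221 to 22488477 fragments per library. Gene lengths of the members were then sought that made their values whole fragments within 0.01. These depths set the counting precision, and low genes are imprecise. Replicates of a group correlated at r of 0.96 to 0.985 across genes.

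The two-sided moderated test of limma 3.58.1 (R 4.3.3, trended eBayes) was run on log2(FPKM + 1) with the libraries of the groups compared, on genes at 1 FPKM or more in at least as many libraries as the smaller group has. Benjamini-Hochberg adjusted p below 0.05 was called. FPKM is relative, so a change in total RNA is not seen. The members and lists were chosen with earlier results of these data known. Named were all 8 members, up to 3 called genes per list of at least 5 FPKM with the greatest difference, each list's most abundant gene and the 5 genes most like Sdc4. One gene that this rule names is not reported here. Promoters come from RefSeq (GRCm38.p6). All 8 members, and 24920 of the symbols, matched RefSeq. Other pseudocounts, filters, scalings, the replicate block and leaving out libraries were tried.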

Additional observations from a re-analysis of the deposited data

How the results depend on the processing

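The stage calls of Sdc3 and Gpc4 held under all alternatives run. Sdc3 passed the filter on low values through the EGFP 8-cell libraries alone. Genes called for p150DN numbered 4023 (2887 higher, 1136 lower). With 1 library left out, the genes called numbered from 2441 (without EGFP 8-cell replicate 1) to 4071 (without p150DN replicate 2), and 2610 without p150DN replicate 3. They numbered 1913 with p150DN replicates 2 and 3 both left out, which was added once the data had been seen. Median-of-ratios scaling gave 1682 higher and 2358 lower and quantile normalization 1748 and 1827, as the median log2 difference of all genes went from 0.19 to -0.08 and -0.04. Between the stages the split was 5198 and 3038, then 4246 and 3810, and 3997 and 3902, with 6018 to 8144 called when 1 library was left out. Between p150DN and blastocysts 3301 were called, 1555 without a filter, 631 with p150DN replicates 2 and 3 both left out, and 0 to 4215 with 1 library left out. In an arm of 1 library the other group alone gives the spread. The 63 and 0 there were without blastocyst replicate 1 and 2, and the latter by limma had 2947 genes at an unadjusted p under 0.05.

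Gpc1 changed sign. Its stage difference was -0.11 with median-of-ratios scaling, -0.27 with quantile normalization, -0.16 with the replicate block and -0.16 to 0.20 with 1 library left out (-0.14 without blastocyst replicate 1). Against blastocysts, Gpc1 in p150DN differed by -0.017 and -0.10 with these scalings, -0.10 with the replicate block, -0.40 with p150DN replicates 2 and 3 both left out, and -0.13 to 0.25 with 1 library left out (-0.05 and -0.10 without p150DN replicates 2 and 3). The cause was not tested. The replicate block gave 4081, 7861 and 3072 genes called in the 3 comparisons. Same-numbered EGFP and p150DN libraries correlated in their deviations at r of 0.047, 0.089 and 0.036, so the numbers were not taken as pairs, and not every library correlated best with its own number. For the lists, 359 of 450 counts under alternatives were within 1.5 times the main count. Members under about 1 FPKM rest on few fragments, and this limits Sdc2, Gpc3 and Gpc6.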
